A study of Mus musculus with 12 samples.

Results

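The 6 genes described here, Grm2, Grm3, Grm4, Grm5, Grm7 and Grm8, encode metabotropic glutamate receptors. They were taken by symbol from a table of 22236 genes in mouse hippocampus, and all 6 passed the filter on low counts, as did 15853 genes in all. Averaged over strains, knockdown of Hp1bp3 was followed by a change past the adjusted threshold in 0 of the 6, beside 0.00% of all genes tested. The estimate furthest from 0 relative to its error was that of Grm7, which was 19.7% higher. Between the strains the estimates with the smallest p were a lower Grm8 in D2 than in B6 under control virus and a higher Grm2 in D2 than in B6 under knockdown, and neither passed the adjusted threshold in the fit reported here.

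Metabotropic glutamate receptors are G protein coupled receptors that tune transmission at synapses where glutamate also opens ion channels. Group I receptors, among them mGluR5 from Grm5, couple to Gq, phospholipase C and calcium release, sit mostly at the edge of the postsynaptic density, and in hippocampus are known for a form of long-term depression that needs new protein synthesis. Group II receptors (from Grm2 and Grm3) and group III receptors (from Grm4, Grm6, Grm7 and Grm8) couple to Gi/o, lower cyclic AMP and, on axon terminals, reduce transmitter release. Pyramidal cells, granule cells, interneurons and astrocytes differ in which receptors they make, and in whole hippocampus fewer cells of a type and less mRNA per cell cannot be told apart.

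Hippocampus was taken from male mice of 2 inbred strains, C57BL/6J (here B6) and DBA/2J (here D2), injected at 3 to 5 months of age and examined at least 6 weeks later. All 12 mice had received virus: the KD groups got AAV9-shRNA-Hp1bp3, a hairpin against the chromatin protein Hp1bp3, and the Ctrl groups got a scrambled hairpin labelled AAV-scrmb-shRNA. There were 3 libraries in each of B6 Ctrl, B6 KD, D2 Ctrl and D2 KD, and no group without injection. The p-values measure the spread between these 3 mice a group.

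Depth lay between 18.2 M and 39.4 M expected counts a library. Levels are given as CPM, the expected count scaled to the library's size after TMM normalization. Hp1bp3 stood at 308, 294 and 310 CPM in B6 Ctrl and at 185, 182 and 259 CPM in B6 KD. In D2 it stood at 226, 215 and 234 CPM in Ctrl and at 177, 163 and 230 CPM in KD. The targeted mRNA was thus lower in all 3 B6 KD libraries, while the library D2 KD 3 lay inside the D2 Ctrl range. Over both strains the difference was -0.41 on the log2(CPM + 1) scale (exact permutation p = 0.015, 2-sided, 400 assignments). In the edgeR quasi-likelihood fit used for all other genes, Hp1bp3 was not called: its estimate was -0.39 ± 0.11 averaged over strains (adjusted p = 0.0907), -0.54 ± 0.15 for B6 (adjusted p = 0.0760) and -0.25 ± 0.15 for D2 (adjusted p = 1, unadjusted p = 0.131). The neuron markers Snap25, Syt1, Rbfox3, Stmn2, Nefl, Map2 and Syn1 summed to between 5183 and 6579 CPM in every library, and the 5 CA1 and 5 CA3 markers, which label hippocampal pyramidal cells, to between 506 and 809 CPM and between 286 and 419 CPM. The 7 choroid plexus markers summed to between 62.7 and 5151 CPM, and each group held libraries with little and with much of them.

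The receptor genes lie on 5 chromosomes in GRCm38 (GENCODE M21). All are protein coding, and Grm7 and Grm8 share chromosome 6. Grm5 (ENSMUSG00000049583) lies at chr7:87584168-88134907 on the plus strand. Grm2 (ENSMUSG00000023192) lies at chr9:106643095-106656082 and Grm3 (ENSMUSG00000003974) at chr5:9485541-9725170, both on the minus strand. Grm4 (ENSMUSG00000063239) lies at chr17:27422387-27521403 and Grm8 (ENSMUSG00000024211) at chr6:27275119-28135178, both on the minus strand, and Grm7 (ENSMUSG00000056755) at chr6:110645581-111567230 on the plus strand. The genes differ widely in span, from 13.0 kb for Grm2 to 921.6 kb for Grm7, whereas their joined exons cover 3.05 kb (Grm3) to 10.2 kb (Grm5). The antisense gene Gm28111 shares 470 bp, or 9.6%, of the Grm2 exons and Gm20387 shares 130 bp of the Grm7 exons. Without known strand those reads cannot be assigned with certainty.

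Per kilobase of exon, Grm5 was the most abundant receptor mRNA, with a mean of 21.0 CPM per kb over the 12 libraries. Grm3 followed at 15.7, Grm2 at 13.2, Grm7 at 10.0, Grm4 at 2.54 and Grm8 at 1.02 CPM per kb. Grm6, the receptor of retinal ON bipolar cells, had 0 to 4 expected counts a library and was not tested. The ranges over libraries overlapped between all neighbours from Grm5 down to Grm7. A gap without overlap lay between Grm7 (7.87 to 12.1 CPM per kb) and Grm4 (1.21 to 4.43 CPM per kb). Grm4 was above Grm8 in 12 of 12 libraries although their ranges touched.

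**Figure D1:**
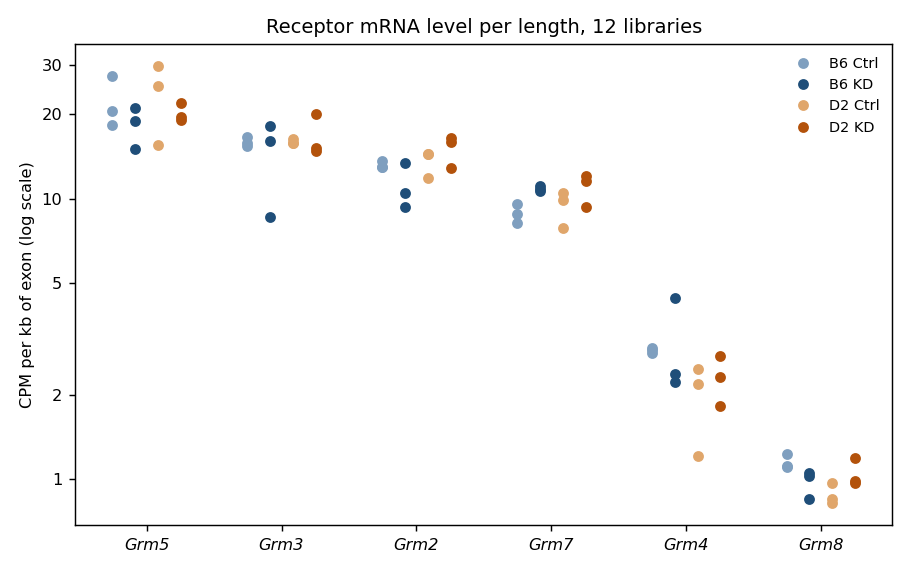
TMM-scaled CPM per kb of exon (vertical, log scale) for the 6 receptor genes (horizontal). Each point is 1 of 12 libraries, coloured by group. Grm5, Grm3, Grm2 and Grm7 form a band from 7.87 to 29.7 CPM per kb, and Grm4 and Grm8 lie below it in every library.

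Summed per length over the 6 genes, group II was the largest part of the receptor mRNA in all libraries except D2 Ctrl 2, where Grm5 was. Group II (Grm2 and Grm3) took 38.8% to 54.3% of the sum, Grm5 27.9% to 41.7% and group III (Grm4, Grm7 and Grm8) 17.9% to 30.98%. The highest group III share, 30.98%, was in B6 KD 3, and the other 11 libraries reached at most 24.1%. These shares describe mRNA only and assume that the annotated exons stand for the transcripts made.

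**Figure D2:**
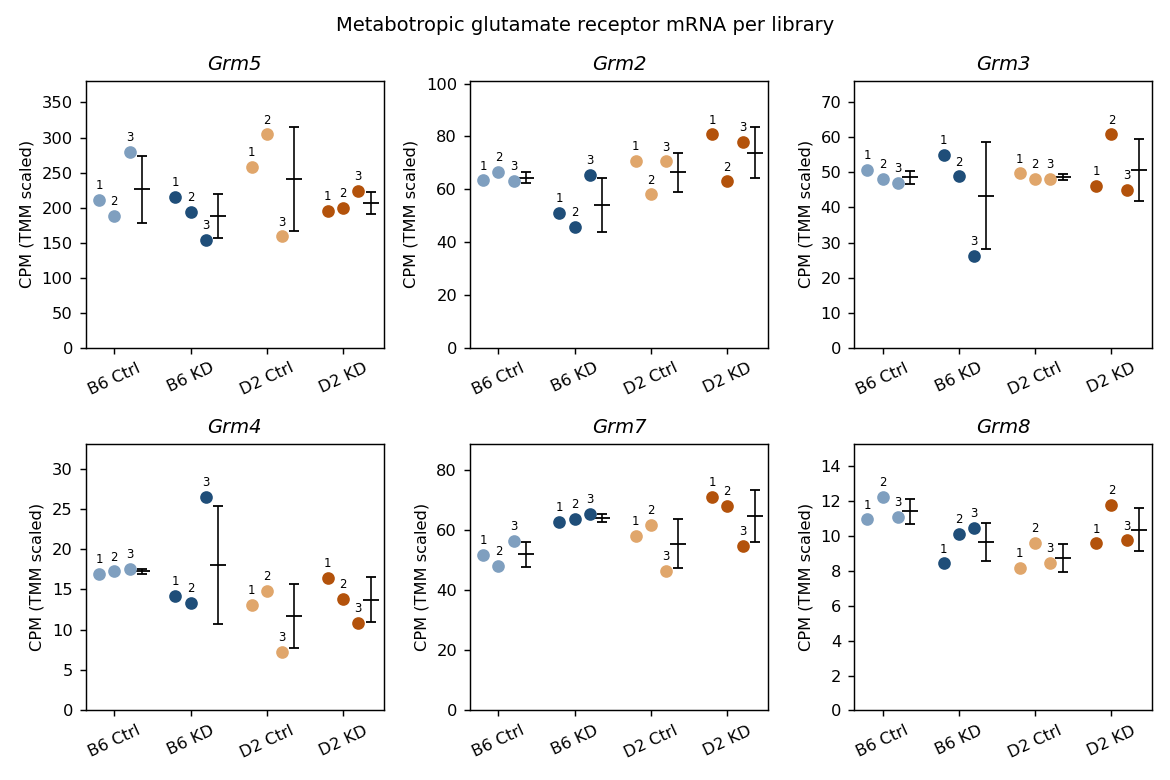
TMM-scaled CPM (vertical, from 0) of each receptor gene in the 4 groups (horizontal). Points are single libraries with their number, and the bar beside them is the mean with its SD over 3 libraries. Grm7 is higher in all 3 B6 KD libraries than in B6 Ctrl, Grm8 is lower in them, and B6 KD 3 is the lowest of 12 libraries in Grm3 and the highest in Grm4.

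Grm5, the group I member, had a coefficient of variation of 21.2% over the 12 libraries (Grm4 30.4%, the other members 13.1% to 16.8%). It stood at 211, 188 and 279 CPM in B6 Ctrl and at 215, 194 and 154 CPM in B6 KD. In D2 it stood at 259, 304 and 159 CPM in Ctrl and at 196, 200.1 and 224 CPM in KD. The groups overlapped in both strains, with means of 226 ± 47.6 and 187 ± 31.2 CPM in B6 Ctrl and KD, and of 241 ± 74.4 and 207 ± 15.0 CPM in D2 (SD, n = 3 each). The KD estimates were -0.27 ± 0.23 in B6, -0.22 ± 0.23 in D2 and -0.24 ± 0.16 averaged over strains (log2 fold change ± SE). The last has a 95% interval of -0.60 to 0.11 and an adjusted p of 0.431 by edgeR's quasi-likelihood test, so a fall of up to 0.60 or a small rise is compatible with these libraries. The 1411 tested genes with at least 10 kb of exon, to which Grm5 belongs, moved between libraries in the same order at the ends: their median log2 deviation was -0.16 in both B6 KD 3 and D2 Ctrl 3, the libraries lowest in Grm5 within B6 and D2, and 0.18 and 0.16 in B6 Ctrl 3 and D2 Ctrl 2, the highest. The part of gene length in the Grm5 values was not tested.

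The gene whose residual pattern was nearest to Grm5 was Wnk3, a kinase (r = 0.99 over 12 libraries after group means were subtracted, 14175 genes compared), followed by Zfp397 (0.99) and Magi2 (0.99), a synaptic scaffold. These correlations describe libraries that share depth and tissue makeup and carry no test.

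Of the group II genes, Grm2 encodes a mainly presynaptic receptor of perforant path and mossy fibre terminals. It stood at 63.4, 66.7 and 63.3 CPM in B6 Ctrl and at 51.1, 45.8 and 65.5 CPM in B6 KD. In D2 it stood at 70.8, 58.0 and 70.5 CPM in Ctrl and at 80.8, 63.0 and 78.0 CPM in KD. The 2 lowest values of all 12 were B6 KD libraries and the 2 highest were D2 KD libraries, and Ctrl and KD overlapped in both strains. The KD estimate was -0.25 ± 0.14 in B6 and 0.15 ± 0.14 in D2 (log2 ± SE), and their difference of 0.40 ± 0.20 had an unadjusted p of 0.068 and an adjusted p of 0.848 by edgeR's quasi-likelihood interaction test. Averaged over strains the estimate was -0.05 ± 0.10, with a 95% interval of -0.27 to 0.17.

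Grm3 encodes the group II receptor found on astrocytes as well as neurons. It was nearly level in both Ctrl groups, at 50.7, 48.3 and 46.9 CPM in B6 and 49.7, 48.2 and 48.3 CPM in D2. Under KD it spread, to 55.104, 48.8 and 26.2 CPM in B6 and to 46.1, 60.9 and 45.1 CPM in D2. The low value of 26.2 CPM belonged to B6 KD 3. The KD estimate in B6, -0.17 ± 0.22, became 0.07 without that library, and the estimate in D2, 0.06 ± 0.22, became -0.10 without D2 KD 2 (log2 ± SE, none past the threshold). B6 KD 3 also had the lowest Gja1, the astrocyte connexin, at 143 CPM against 252 to 493 CPM in the other 11, and the highest Gfap, at 2603 CPM. The 7 astrocyte markers together summed to 3319 to 4569 CPM in B6 KD and 2506 to 2702 CPM in B6 Ctrl. Most of that gap was Gfap, at a mean of 1964 CPM in B6 KD and 606 CPM in B6 Ctrl. Of the 7 estimates 5 were higher and 2 lower, among them Aldoc (762 against 586 CPM in Ctrl and KD, log2 -0.38 ± 0.15) and S100b (92.4 against 84.0 CPM), and only Aqp4 was called by edgeR (171 against 393 CPM in Ctrl and KD, adjusted p = 0.0326). The part of these cells in the Grm3 values was not tested.

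Grm2 and Grm3 had r = -0.78 over 12 libraries after the group means were subtracted, the most negative of the 15 pairs of members. The value rests mainly on KD libraries, since Grm3 varied little under Ctrl. Its SD was 1.90 CPM in B6 Ctrl and 0.86 CPM in D2 Ctrl, against 15.2 CPM in B6 KD and 8.82 CPM in D2 KD. B6 KD 3 lay furthest from the Grm3 mean (-0.82 log2), and r without that library is not given here. The ratio of Grm2 to Grm3, each per kilobase, was 0.78, 0.86 and 0.84 in B6 Ctrl. In B6 KD it was 0.58, 0.58 and 1.56, and B6 KD 3 thus had the highest ratio of all 12. In D2 it was 0.89, 0.75 and 0.91 in Ctrl and 1.09, 0.64 and 1.08 in KD. Most like Grm2 was Fh1, the mitochondrial fumarase (r = 0.97), then Tada1 (0.97) and 2510003E04Rik (0.96). Most like Grm3 were Hist1h2be (0.97), Sesn1 (0.96) and Folh1 (0.96), the peptidase that degrades the mGluR3 agonist NAAG. The likeness to Folh1 was 0.86 without B6 KD 3.

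**Figure D3:**
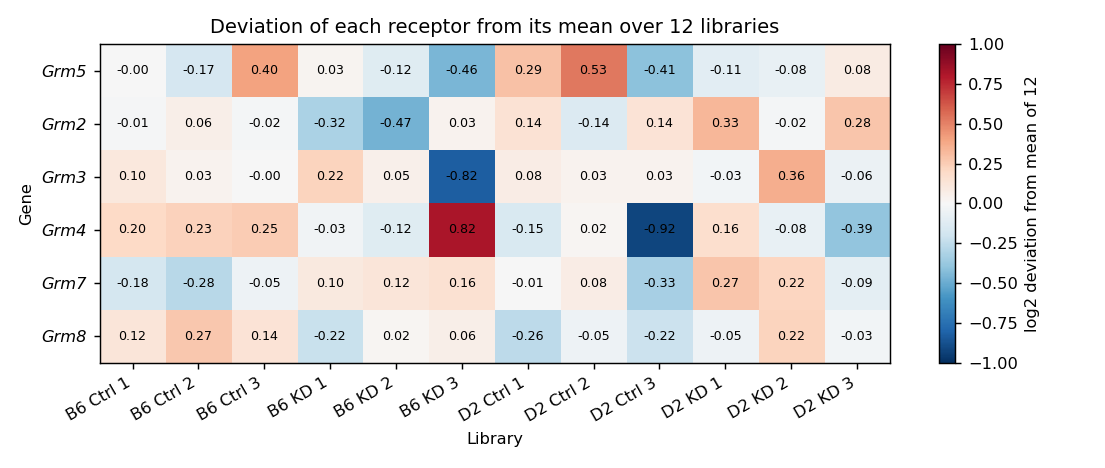
Log2 deviation of each receptor gene (rows) from its own mean over 12 libraries (columns), with the value printed in each cell. Red is above and blue below the mean. Grm3 and Grm4 take opposite extremes in B6 KD 3, and Grm2 and Grm3 differ in sign in all 6 KD libraries.

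Of the group III genes, Grm7 encodes a receptor of low glutamate affinity placed in the active zone of axon terminals. It stood at 51.7, 48.1 and 56.5 CPM in B6 Ctrl and at 62.7, 63.8 and 65.4 CPM in B6 KD. In D2 it stood at 58.3, 61.9 and 46.3 CPM in Ctrl and at 71.1, 68.2 and 54.8 CPM in KD. All 3 B6 KD libraries were above all 3 B6 Ctrl libraries, whereas in D2 the groups overlapped through D2 KD 3. That library had the most Hp1bp3 of D2 KD (230 CPM) and the least Grm7. B6 KD 3 had the most Hp1bp3 of B6 KD (259 CPM) and also the most Grm7. A link between the levels of the 2 genes was not tested. In B6 the estimate was 0.30 ± 0.12, with a 95% interval of 0.02 to 0.57 and an adjusted p of 0.207 by edgeR's quasi-likelihood test. For D2 it was 0.22 ± 0.12, with an interval of -0.05 to 0.50 and an edgeR adjusted p of 1. Averaged over strains it was 0.26 ± 0.09, with a 95% interval of 0.07 to 0.45, an unadjusted p of 0.0132 and an adjusted p of 0.152 by the same test. It was positive in all 12 fits that left out 1 library, from 0.20 to 0.31, and the difference between strains was -0.07 ± 0.18. At an unadjusted p under 0.05 it stood with 19.2% of all genes tested, and its p ranked 1370 of 15853. Most like Grm7 were Pphln1 (r = 0.97), 4833424O15Rik (0.96) and Gjd2, the neuronal connexin (0.96).

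Grm8, a presynaptic receptor and the least abundant of the 6, stood at 10.9, 12.2 and 11.1 CPM in B6 Ctrl and at 8.43, 10.1 and 10.5 CPM in B6 KD. In D2 it stood at 8.15, 9.62 and 8.45 CPM in Ctrl and at 9.57, 11.8 and 9.74 CPM in KD. The B6 KD libraries were all below B6 Ctrl, and in D2 the groups overlapped with the KD mean the higher. These levels rest on 170 to 448 expected counts a library. The KD estimate of -0.24 ± 0.13 in B6 had an adjusted p of 0.324 by edgeR's quasi-likelihood test, and that of 0.25 ± 0.13 in D2 an adjusted p of 1 by the same test. Averaged over strains it was 0.00 ± 0.09, with a 95% interval of -0.20 to 0.21. The difference between the strains' KD effects, 0.49 ± 0.18 (95% interval 0.08 to 0.89), had an unadjusted p of 0.0224 and an adjusted p of 0.821 by the interaction term. At that unadjusted level 5.91% of all genes were found. Most like Grm8 were Ppp2r3d (r = 0.94), Lrg1 (0.87) and Nfu1 (0.87).

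Grm4, best known from cerebellar granule cells, stood at 16.9, 17.2 and 17.6 CPM in B6 Ctrl and at 14.2, 13.3 and 26.5 CPM in B6 KD. In D2 it stood at 13.0, 14.8 and 7.26 CPM in Ctrl and at 16.5, 13.8 and 10.9 CPM in KD. The 3 B6 Ctrl libraries lay close together, at 17.2 ± 0.350 CPM, while B6 KD had the widest spread of any member and group, at 18.0 ± 7.34 CPM or a coefficient of variation of 40.8% (SD, n = 3). The KD estimate in B6, 0.07 ± 0.30, turned to -0.35 without B6 KD 3, and that in D2, 0.23 ± 0.30, to -0.02 without D2 Ctrl 3. Averaged over strains it was 0.15 ± 0.21 (95% interval -0.32 to 0.61), and -0.07 without B6 KD 3. Most like Grm4 were Zfp639 (r = 0.97), Mrpl3 (0.96) and Ttc19 (0.96). Among the members, Grm4 and Grm7 were the most alike pair (r = 0.72), again as a description.

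The first comparison asked whether Hp1bp3 knockdown changed the receptor mRNAs. Averaged over strains, 0 of the 6 members passed an adjusted p of 0.05 by edgeR, beside 0.00% of all genes tested. In B6 it was 0 of 6 beside 2.64% of all genes, and in D2 0 of 6 beside 0.00%. The strain by treatment interaction gave 0 of 6 beside 0.00% of all genes. DESeq2 and limma-voom also called 0 of 6 in each of the 4. At an unadjusted p under 0.05 the counts were 1 of 6 averaged over strains (19.2% of all genes), 1 in B6 (20.6%), 0 in D2 (2.85%) and 1 for the interaction (5.91%). The first and second were both Grm7, and the interaction was Grm8. Libraries did not overlap between KD and Ctrl for 2 of 6 in B6, beside 27.8% of all genes, and for 0 of 6 in D2, beside 5.96%. The median estimate over the 6 was -0.02 averaged over strains, -0.20 in B6 and 0.19 in D2, beside medians over all genes of 0.01, 0.00 and 0.00 (log2). Estimates were lower under KD for 4 of 6 in B6 and higher for 5 of 6 in D2, with Grm5 lower and Grm4 and Grm7 higher in both.

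**Figure D4:**
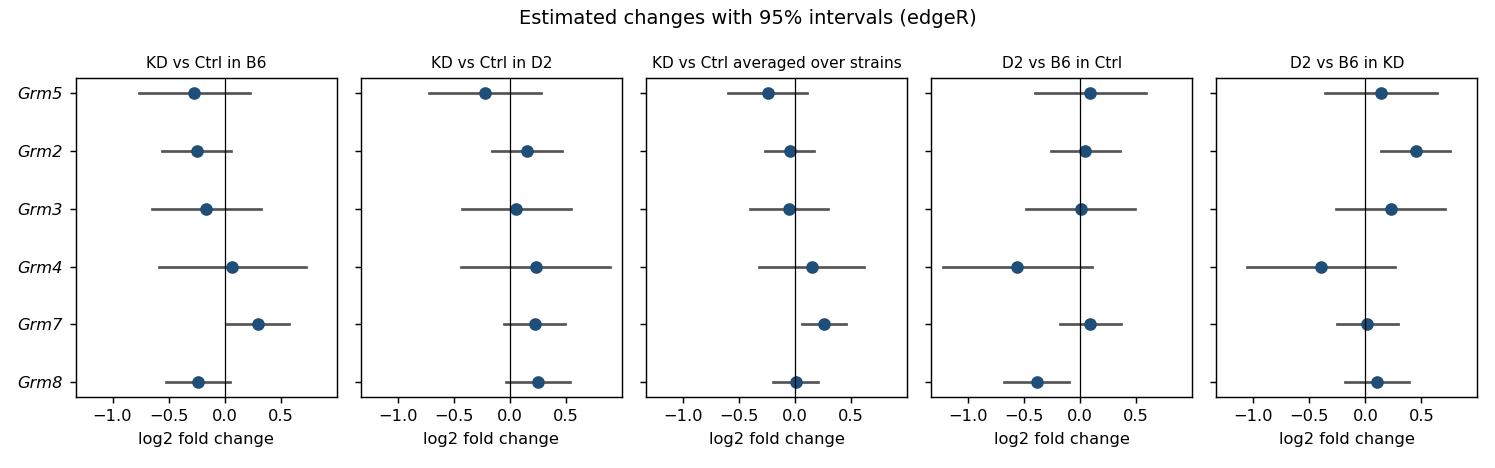
Log2 fold changes (horizontal) of the 6 receptor genes (rows) in 5 comparisons (panels), as edgeR estimates with 95% intervals. The intervals of Grm7 in B6 and averaged over strains, of Grm8 between strains under Ctrl and of Grm2 between strains under KD leave out 0, and none of these passed an adjusted p of 0.05.

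The next comparison set D2 against B6. Reads of each strain had been aligned to that strain's own genome, so a difference in reference and one in mRNA cannot be told apart here. Under Ctrl, 0 of 6 members passed the threshold by edgeR beside 14.0% of all genes, and 1 of 6 had an unadjusted p under 0.05 beside 23.2%. DESeq2 called 1 of 6 and limma-voom 0. That gene was Grm8, lower in all 3 D2 Ctrl than in all 3 B6 Ctrl libraries, at -0.39 ± 0.13 on the log2 scale (95% interval -0.67 to -0.10), with an adjusted p of 0.0796 by edgeR's quasi-likelihood test and 0.0348 by DESeq2. Grm4 also lay lower in all 3 D2 Ctrl libraries, at -0.56 ± 0.30 (95% interval -1.22 to 0.10, edgeR adjusted p = 0.313). No overlap between strains was thus seen for 2 of 6 members beside 31.7% of all genes. The other 4 estimates lay between 0.00 and 0.09.

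Under KD, 0 of 6 members differed between D2 and B6 by edgeR beside 15.0% of all genes, and 1 of 6 had an unadjusted p under 0.05 beside 26.3%. DESeq2 called 1 and limma-voom 0. The gene was Grm2, at 73.9 ± 9.58 CPM in D2 KD and 54.1 ± 10.2 CPM in B6 KD (SD, n = 3 each). Its estimate was 0.45 ± 0.14 (95% interval 0.14 to 0.76), with an adjusted p of 0.0566 by edgeR's quasi-likelihood test and 0.0137 by DESeq2. Without B6 KD 3 the edgeR adjusted p was 0.00827, and without D2 KD 2 it was 0.0309. These were the only 2 of 12 fits without 1 library that called Grm2. Of 25 settings, the main fit among them, 5 called it. The libraries of the 2 groups overlapped, since B6 KD 3 stood at 65.5 CPM and D2 KD 2 at 63.0 CPM. Under Ctrl the same strain estimate for Grm2 was 0.04 ± 0.14.

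Averaged over treatments, 0 of 6 members passed between strains by edgeR beside 21.3% of all genes. DESeq2 and limma-voom also called 0 of 6, and by edgeR 2 of 6 had an unadjusted p under 0.05 beside 30.3%. These were Grm2, 0.25 ± 0.10 (edgeR adjusted p = 0.114, and 0.0163 without B6 KD 3), and Grm4, -0.48 ± 0.21 (edgeR adjusted p = 0.153). Grm2 was called in 1 of 12 fits without 1 library, and Grm4 in 0. Grm3, Grm5 and Grm7 had estimates of 0.11, 0.11 and 0.05, each with a 95% interval that spanned 0 and ended below 0.47. Of the 7 markers of dentate granule cells, a source of Grm2 mRNA, 1 was called in this comparison, Prox1, lower in D2 (-1.82 ± 0.44, edgeR adjusted p = 0.0113). The list went both ways, with 3 estimates higher and 4 lower in D2 and a median of -0.13. The markers summed to between 291 and 437 CPM in B6 and between 212 and 377 CPM in D2, and their part in the Grm2 values was not tested.

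By order of the group means, D2 KD was highest and B6 KD lowest for Grm2 and Grm3, whereas for Grm5 D2 Ctrl was highest and B6 KD lowest. For Grm7 both KD groups stood above both Ctrl groups. For Grm4 both B6 groups stood above both D2 groups, and for Grm8 the order was B6 Ctrl, D2 KD, B6 KD and D2 Ctrl. Neighbours in these orders overlapped except B6 Ctrl above D2 KD for Grm4 and B6 KD above D2 Ctrl for Grm7.

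The receptors' partners were read from 6 further lists. In B6 KD, 1 of 15 scaffold and adaptor genes was called, Elfn2, a postsynaptic adhesion protein of the family that binds group III receptors across the cleft. It stood at 192, 155 and 172 CPM in B6 Ctrl and at 103, 113 and 121 CPM in B6 KD, so every KD library was lower. The estimate was -0.62 ± 0.12 (edgeR adjusted p = 0.0361), with 172, 176 and 163 CPM in D2 Ctrl and 179, 136 and 170.1 CPM in D2 KD, which overlapped, and the strain difference in the KD effect, 0.55 ± 0.16, had an adjusted p of 0.821 by the edgeR interaction test. Elfn2 was called in 6 of 12 fits without 1 library. Of 16 group I Gq and calcium genes 1 was called, Mgll, which degrades the endocannabinoid made after mGluR5 activation, at -0.42 ± 0.10 (edgeR adjusted p = 0.0488, called in 3 of 12 fits without 1 library). Mgll stood at 200.2, 189 and 193 CPM in B6 Ctrl and at 159, 138 and 137 CPM in B6 KD.

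In the other 4 lists, 0 of 20 Gi/o signalling genes, 0 of 6 desensitization genes, 0 of 11 effectors of mGluR-dependent depression and 0 of 12 genes of glutamate and NAAG supply were called in B6 KD. At an unadjusted p under 0.05 these held 6, 3, 3 and 2, the scaffold list 5 and the Gq list 4, which together are 23 of 80 genes or 28.8%, beside 20.6% of all genes. Averaged over strains, in D2 and for the interaction, 0 of the 80 genes of all 6 lists were called by edgeR and 0 by limma-voom. DESeq2 called 8 averaged over strains and 0 in D2 and for the interaction. Shares over all genes are given for edgeR alone, so the DESeq2 and limma-voom counts have no background beside them. At an unadjusted p under 0.05 edgeR gave 19 of the 80 genes, or 23.8%, averaged over strains against 19.2% of all genes, 2 in D2 and 5 for the interaction. The 2 genes called in B6 are 2.5% of the 80, beside 2.64% of all genes, and there DESeq2 called 11 and limma-voom 1. The estimates of the Gq list were lower under KD for 14 of 16 genes in B6 (median -0.28) and for 15 of 16 in D2 (median -0.15). The medians over all genes were 0.00, and of the Gq genes only Mgll in B6 passed the edgeR test. In B6 the estimates were also lower for 12 of 15 scaffold genes (median -0.21), 16 of 20 Gi/o genes (-0.10) and 5 of 6 desensitization genes (-0.19). They were lower there for 6 of 11 depression effectors and 6 of 12 supply genes. In D2 these 5 lists had 11, 9, 4, 5 and 8 lower. The estimates of cell type markers in B6 leaned as well. The CA1 markers were lower for 4 of 5 (median -0.48, 4 with an unadjusted p under 0.05), summing to 632 to 809 CPM in B6 Ctrl and 506 to 637 CPM in B6 KD. The neuron markers were lower for 5 of 7 (median -0.11), at 5823 to 6504 and 5183 to 5898 CPM, and the microglia markers higher for 6 of 6 (median 0.65, 5 with an unadjusted p under 0.05), at 254 to 302 and 354 to 568 CPM. Of these 3 marker lists edgeR and limma-voom called 0 genes in B6, while DESeq2 called 3 CA1, 1 neuron and 4 microglia markers. Their part in the values of the receptors and their partners was not tested.

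**Figure D5:**
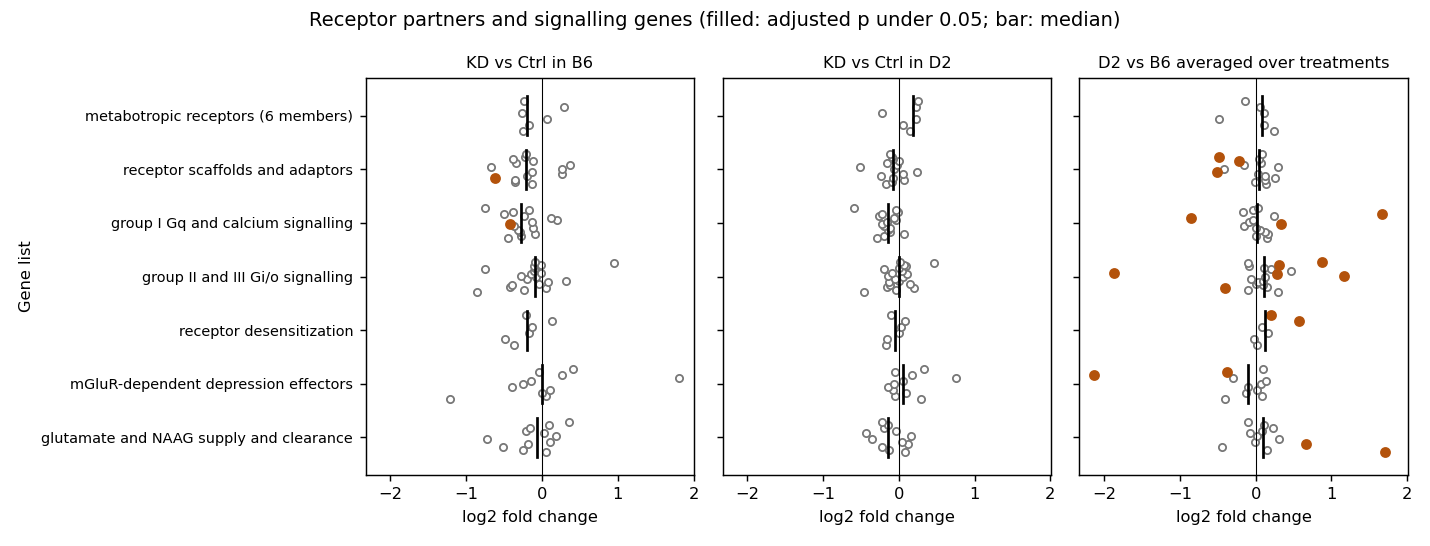
Log2 fold changes (horizontal) of the 6 receptor genes and the genes of 6 partner lists (rows) under KD in B6, under KD in D2 and between strains. Each point is 1 gene, filled where the edgeR adjusted p was under 0.05, and the bar is the list's median. Filled points are 2 in B6 KD, 0 in D2 KD and 18 between strains, none of them a receptor.

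Between strains, averaged over treatments, 18 of the 80 genes of these lists differed, or 22.5% beside 21.3% of all genes, while 0 of the 6 receptors passed. On the Gi/o side, Gnb5 was higher in D2 (1.17 ± 0.06), as was its partner Rgs7 (0.87 ± 0.06), which together speed the turn-off of Gi/o proteins, while Kcnj3, a subunit of the potassium channel that Gi/o opens, was lower (-1.86 ± 0.15). Gnb5 reached at most 46.1 CPM over the 6 B6 libraries and stood at 81.6 to 104 CPM over the 6 D2 libraries. Kcnj3 ran from 161 to 207 CPM in B6 and from 38.7 to 63.5 CPM in D2. Altogether 6 of 20 Gi/o genes passed, 4 higher and 2 lower.

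On the Gq side 3 of 16 genes passed: Prkcb, a protein kinase C, was higher in D2 (1.67 ± 0.20), Plcb4, a phospholipase C, was lower (-0.86 ± 0.15) and Mgll was higher (0.34 ± 0.07). Of the genes that set the supply of the group II agonist NAAG, Folh1 was higher in D2 (1.70 ± 0.27), at 16.8 to 32.2 CPM against 2.82 to 9.59 CPM in B6. The NAAG synthetase gene Rimkla was also higher in D2 (0.66 ± 0.09), and these were the 2 of 12 supply genes called. Neither Grm2 nor Grm3 passed in the same comparison.

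Among scaffolds 3 of 15 passed and all were lower in D2, namely Shank2 (-0.48 ± 0.08), Grip1 (-0.51 ± 0.12) and Pick1 (-0.22 ± 0.06), which bind receptors at the postsynaptic density or, for Pick1, the tail of mGluR7. Of the desensitization genes 2 of 6 passed, both receptor kinases and both higher in D2, Grk5 (0.57 ± 0.15) and Grk6 (0.20 ± 0.06). Of the depression effectors 2 of 11 passed, both lower in D2, among them Nptxr, the neuronal pentraxin receptor (-2.13 ± 0.26). Under Ctrl alone Arc, whose protein drives AMPA receptor uptake, was lower in D2 as well (-1.16 ± 0.30). Its strain estimate was 0.35 ± 0.30 under KD and -0.40 ± 0.21 averaged over treatments, neither called by edgeR. Arc was also lower in every B6 KD library (78.4, 57.2 and 81.8 CPM) than in B6 Ctrl (142.5, 188.9 and 173 CPM). That KD estimate was -1.21 log2, uncalled in the main fit and called in 6 of 25 settings. In D2 the KD estimate was 0.30, and the libraries overlapped. Values given for called genes are log2 differences ± SE with an edgeR quasi-likelihood adjusted p under 0.05.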

How the data were processed

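Hippocampal mRNA of 12 mice was sequenced with 75 bp paired-end reads. The authors trimmed reads, aligned them to the genome of each mouse's own strain and quantified genes with RSEM 1.2.12 and Bowtie2 2.2.0, and the deposited expected counts are these estimates, not normalized. The deposited signal per gene is the authors' DESeq2 normalized count. Multiplied by 1 size factor per library (0.584 to 1.35) it gave whole reads for 100% of 266808 values (tolerance 0.01), equal to the expected counts with decimals dropped. The submitters' processing notes name GRCm38. The annotation release and strand setting are not given in the sources used here, and positions and exon lengths are from GENCODE M21, which held 98.6% of gene identifiers. Reads of 2 runs were joined for most samples, per the paper's methods. Spreadsheet dates in 27 symbols were restored from the identifiers.

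Rounded expected counts of 15853 genes left by filterByExpr were fitted with edgeR 4.0.16 (R 4.3.3; TMM, glmQLFit with its default method and robust estimation, 1 mean per group), and 7 contrasts were tested with Benjamini-Hochberg adjustment over all genes. Each SE is the size of the log2 estimate over the square root of its F statistic. DESeq2 1.42.0, limma 3.58.1 (voom) and other settings were alternatives. Every share of all genes called is from the edgeR fit and is no background for counts by the other tools. Replicates are numbered in deposit order and pair nothing. Of each list, up to 3 genes with the smallest p among those called are named in a comparison, and for each member the 3 genes most like it. The edgeR fit was tried on simulated counts of the filtered genes, with 200 genes changed in B6 KD. Those changes were larger than any estimated for the members, so small changes and the filter itself were not tried. The members and lists were chosen with earlier results of these data known, and the check of long genes was added after values were seen. Counting error is small at these totals except for Grm8 and Grm4. Proteins, isoforms and small RNA were not analysed here, and values of some list genes are not reported here.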

Additional observations from a re-analysis of the deposited data

How the results depend on the processing

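Members called stayed at 0 of 6 under all alternatives for KD against Ctrl averaged over strains, in B6, in D2 and for the interaction. For D2 against B6 under Ctrl, DESeq2 called 1 (Grm8), and leaving out 1 library gave 0 to 0. Under KD, 1 (Grm2) was called with DESeq2 size factors, with DESeq2 and with both B6 KD 3 and D2 KD 3 left out, and leaving out 1 library gave 0 to 1. Averaged over treatments, 1 (Grm2) was called without both libraries, and leaving out 1 library gave 0 to 1. Leaving out that pair was chosen after seeing the data. Of 990 member results under alternatives, 982 stayed on their side of the threshold and 8 were newly called. Signs of uncalled estimates changed without some library in 19 of 42 member and comparison pairs, and in 13 under another alternative. No paired analysis was possible because the replicate numbers follow the order of deposit and pair no mice. With 3 mice a group, the 95% intervals of the KD effect within a strain spanned from 0.55 log2 units (Grm7, in B6 and D2) to 1.33 (Grm4, in D2). Of the 80 partner genes, KD in B6 gave 2 calls by edgeR, 11 by DESeq2 and 1 by limma-voom, and KD averaged over strains gave 0, 8 and 0. How many of all genes DESeq2 and limma-voom called is not given here, so these counts show no excess among the partners.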
